A study of Rattus norvegicus with 24 samples.

Results

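Basement membrane genes were followed in the dentate gyrus, a field of the hippocampus, as male Long-Evans rats aged. The genes encode 3 chains of type IV collagen (Col4a1, Col4a2 and Col4a5), both nidogens (Nid1 and Nid2), a beta and a gamma laminin chain (Lamb1 and Lamc1), the heparan sulfate proteoglycans perlecan (Hspg2) and agrin (Agrn), and the collagen-binding glycoprotein Sparc. These 10 genes, of 14217 genes named by a probe set with a single symbol, were taken through every probe set whose platform annotation gives exactly their symbol. They were chosen by family with the log2 differences between these same groups already in view, so their differences between groups are given as a description with no p-value. Differences are log2, as the first-named group minus the second.

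The rats formed 3 groups. Aged impaired rats, 24 to 26 months old, searched for the hidden platform of the Morris water maze less well than young rats (n = 7). Aged unimpaired rats of the same age range learned as well as the young (n = 6), and young rats were 6 months old (n = 8). No rat was treated, and each array carries total RNA of the microdissected dentate gyrus of 1 rat, collected 2 weeks after testing. The learning index sorted aged rats by performance, so learning was not imposed on the animals, and with males of a single strain nothing here speaks to females or to other strains.

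A basement membrane is the thin sheet of matrix under endothelial and epithelial cells and around smooth muscle. Laminin trimers and type IV collagen trimers each assemble into a network, nidogen bridges the networks, and perlecan and agrin bind to them through laminin and other partners. In brain tissue away from the meninges such sheets lie mainly around blood vessels, where endothelial cells, mural cells (pericytes and smooth muscle) and astrocytes all contribute to them. In bulk tissue, fewer cells of a type and less RNA per cell cannot be told apart.

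Within groups, the correlation between arrays over probe sets was 0.997 to 0.998, and each array had 48.3% to 48.8% of its probe sets past a log2 value of 4. The tested granule neuron markers Calb1, Prox1, Stxbp6 and Dsp had mean log2 levels of 11.25, 10.79, 11.36 and 8.05 in aged rats, against 11.41, 10.85, 11.23 and 7.34 in young rats. None was called, although all 13 aged rats were under the young mean for Calb1 (adjusted p 0.176) and above it for Dsp (adjusted p 0.0916). Choroid plexus and meningeal markers were uneven between arrays, as the ranges given with Nid1 show. The defining meningeal genes Col1a1, Col1a2, Col3a1, Dcn and Lum did not pass the level filter on any probe set. No label names a hybridization date or a batch, so none entered the fit.

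Promoters are shown for the genes that the results turn on. RefSeq (assembly GRCr8) places the starts of Col4a1 and Col4a2 head to head on chromosome 16, with the Col4a1 start 77 bases from the Col4a2 start and the genes running away from each other. The window below, 250 bases before to 50 after the start, lies at chr16:84885347-84885646 on the plus strand. Capitals mark the 176 bases that it shares with the Col4a2 window at chr16:84885471-84885770, which is read from the minus strand. The windows of Nid1 (chr17:93069036-93069335, plus strand) and Col4a5 (chrX:109907109-109907408, plus strand), the members with the largest differences, carry capitals at each GC box (GGGCGG) and CCAAT box on either strand. RefSeq begins these genes at 93069013 and 109907251, so both windows are taken around a start further into the gene. That of Nid1 lies wholly inside its RefSeq gene.
Col4a1: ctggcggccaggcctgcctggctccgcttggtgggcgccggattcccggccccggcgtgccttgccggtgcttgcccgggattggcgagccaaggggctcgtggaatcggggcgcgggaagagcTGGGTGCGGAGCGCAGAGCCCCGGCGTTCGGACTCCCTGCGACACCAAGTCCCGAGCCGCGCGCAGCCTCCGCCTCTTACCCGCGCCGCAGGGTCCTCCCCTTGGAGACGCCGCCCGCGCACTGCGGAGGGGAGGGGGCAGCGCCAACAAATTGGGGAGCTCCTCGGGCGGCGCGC
Nid1: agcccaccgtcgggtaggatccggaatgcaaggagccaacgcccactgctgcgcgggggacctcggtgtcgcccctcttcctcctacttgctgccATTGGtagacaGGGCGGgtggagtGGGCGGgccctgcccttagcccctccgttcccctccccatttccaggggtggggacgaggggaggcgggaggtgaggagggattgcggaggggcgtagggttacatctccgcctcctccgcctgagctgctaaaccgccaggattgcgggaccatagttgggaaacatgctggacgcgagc
Col4a5: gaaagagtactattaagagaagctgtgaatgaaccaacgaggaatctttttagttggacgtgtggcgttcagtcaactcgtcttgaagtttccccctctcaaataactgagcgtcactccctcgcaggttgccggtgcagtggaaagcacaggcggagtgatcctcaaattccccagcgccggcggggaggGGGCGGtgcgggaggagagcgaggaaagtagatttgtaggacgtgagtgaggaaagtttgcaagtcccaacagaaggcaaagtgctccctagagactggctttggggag

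The GC box stood 2 times in the Col4a1, Col4a2 and Nid1 windows and 1 time in that of Col4a5. Of 33469 promoter windows of this length, 33.06% hold it. The CCAAT box stood 2 times in the Col4a1 window, 1 time in those of Col4a2 and Nid1 and 0 times in that of Col4a5, against 37.49% of all windows with at least 1. No TATAAA, the core of the TATA box and present in 14.22% of windows, was found in the windows of the 9 members that the table holds. The GC boxes of Col4a1 and Col4a2 lie in the bases that their windows share and are the same sites, read from opposite strands. So is the CCAAT box of Col4a2, which is 1 of the 2 in the Col4a1 window. Both strands were searched, and no match overlaps another within its own window. A match or its absence says only what letters stand in this window.

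The array carries 14 probe sets for the 10 genes. Of these, 10 probe sets for 8 genes had a log2 level above 4 on at least 6 arrays and entered the fit. The sole probe sets of Hspg2 and Nid2 stayed flat on every array, between 2.06 and 2.10 for Hspg2 and from 1.96 to 2.02 for Nid2, so neither gene's level could be followed. A further probe set each of Lamc1 (2.19 to 2.56) and Nid1 (3.19 to 3.29) was flat in the same way, beside another probe set of the same gene that did pass. On this platform a low and flat probe set need not mean a low transcript, so nothing was read from these.

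In the limma fit, 1 of the 10 member probe sets was called at an adjusted p below 0.05 in impaired against young rats (Col4a5, lower), where 0.514% of all 15177 probe sets tested were called and 0.204% were called lower. In unimpaired against young rats 1 was called (Nid1, lower), with 1.13% of all probe sets called and 0.936% called lower. In all aged against young rats 2 were called, Col4a5 and Nid1, both lower, with 1.11% of all called and 0.705% called lower. Between impaired and unimpaired rats 0 members and 0% of all probe sets were called, and 0 members but 14.5% of all were under an unadjusted p of 0.05. At that unadjusted threshold stood 2 of 10 members in impaired, 5 in unimpaired and 5 in all aged rats against young rats, beside 12.4%, 17% and 14.6% of all probe sets. The aged difference is the mean of the 2 aged group means minus the young mean. Both comparisons with young rats share the young arrays. Since the members were chosen with these comparisons known, nothing is read from the shares.

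Differences were negative for 7 of 10 member probe sets in impaired minus young rats, for 10 of 10 in unimpaired minus young and for 9 of 10 in aged minus young, where median centring or quantile normalization of the arrays gives 7, 9 and 8. Over all probe sets tested, 44.8%, 66% and 56.8% were negative in the same order of comparisons. The median of the members was -0.11 for impaired, -0.18 for unimpaired and -0.12 for all aged rats against young rats, beside 0.01, -0.04 and -0.01 over all probe sets. In impaired minus unimpaired, 3 of 10 were negative (27.6% over all), with a median of 0.13 against 0.05 over all. Under median centring the count was again 3 and the median 0.07 against -0.01 over all, and under quantile normalization 3 and 0.06 against -0.01. Apart from Col4a5, Nid1 and Sparc, no member's mean differed from the young mean by more than 0.2 on the log2 scale in either aged group.

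**Figure D1:**
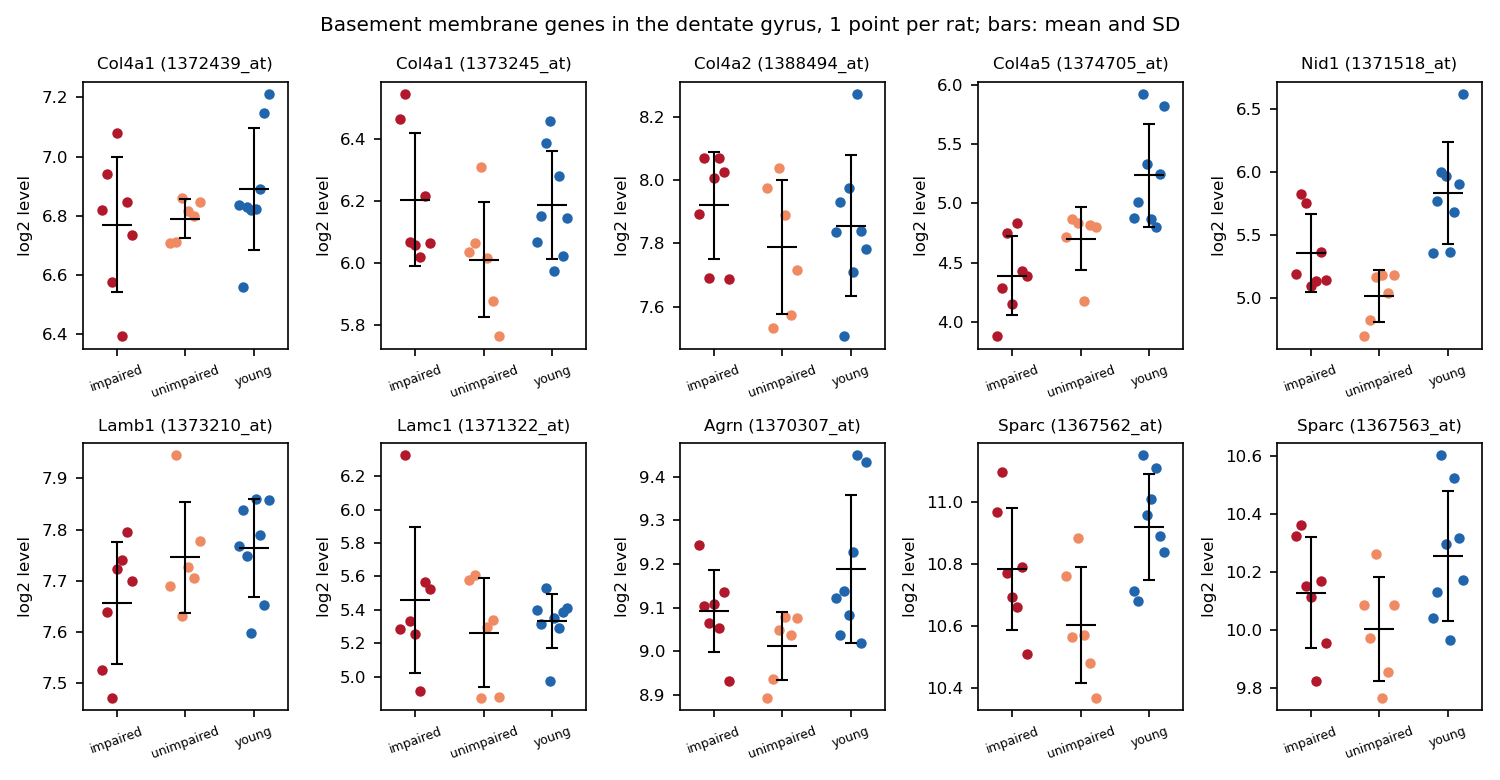
Log2 level (y axis, a different range in each panel) of the 10 tested basement membrane probe sets in impaired (n = 7), unimpaired (n = 6) and young rats (n = 8), 1 point per rat, with bars for the mean and SD. For Nid1 every unimpaired rat, at most 5.18, lies under every young rat, at least 5.36, while for the collagen genes Col4a1 and Col4a2 and for Lamb1 and Lamc1 the groups overlap.

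The principal type IV collagen of most basement membranes is built from the chains that Col4a1 and Col4a2 encode. Col4a2 (1388494_at) ranged from 7.69 to 8.07 in impaired rats (median 8.01), from 7.53 to 8.04 in unimpaired rats (median 7.80) and from 7.51 to 8.27 in young rats (median 7.84). The groups overlapped throughout, with a log2 difference of 0.06 ± 0.10 (SE) for impaired against young rats and -0.07 ± 0.10 for unimpaired against young rats. The more intense Col4a1 probe set (1372439_at) ranged from 6.39 to 7.08 in impaired rats (median 6.82), from 6.71 to 6.86 in unimpaired rats (median 6.81) and from 6.56 to 7.21 in young rats (median 6.83). Its differences were -0.12 ± 0.09 for impaired and -0.10 ± 0.10 for unimpaired rats against young rats, again with overlapping groups. The spread between rats was unequal, with an SD of 0.23 in impaired, 0.07 in unimpaired and 0.21 in young rats.

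The other Col4a1 probe set (1373245_at) ranged from 6.02 to 6.55 in impaired rats, from 5.76 to 6.31 in unimpaired rats and from 5.98 to 6.46 in young rats. It differed by 0.02 ± 0.10 between impaired and young rats and by -0.18 ± 0.10 between unimpaired and young rats. All 7 impaired rats were above the unimpaired mean on this probe set, for a difference of 0.19 ± 0.10, while the more intense probe set gave -0.02 ± 0.10 for the same contrast. The probe sets also varied apart within groups: their deviations from the group means correlated at an r of 0.11 (rho 0.05) over 21 rats, with an adjusted p of 0.657 by permutation of rats within groups.

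Col4a5 encodes a chain of more specialised type IV collagen networks, best known from the kidney glomerulus, where changes in the human gene cause Alport syndrome. Its single probe set (1374705_at) ranged from 3.88 to 4.84 in impaired rats (median 4.39), from 4.18 to 4.87 in unimpaired rats (median 4.81) and from 4.80 to 5.92 in young rats (median 5.13). The lowest young rat stood above 6 of 7 impaired rats and above 2 of 6 unimpaired rats, and all 13 aged rats were under the young mean. The mean was 4.39 ± 0.33 (SD, n = 7) in impaired, 4.70 ± 0.26 (n = 6) in unimpaired and 5.24 ± 0.44 (n = 8) in young rats. That is a log2 difference of -0.84 ± 0.18 (SE) in impaired minus young, 0.557 times the young level, and of -0.53 ± 0.18 in unimpaired minus young, 0.692 times the young level. In impaired minus unimpaired it was -0.31 ± 0.19.

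Col4a5 levels lay close to the level filter of 4. Leaving out 1 array at a time, the impaired call held in 12 of 21 fits and was lost without impaired replicate 1, 2, 4, 7 or 8 or without young replicate 3, 4, 7 or 9, with the log2 difference between -0.92 and -0.75 in all 21. The aged call held in 17 of these 21 and was lost without young replicate 3, 4, 7 or 9. Young replicates 3 and 9 were the highest of the group, at 5.92 and 5.82, while the other 6 young rats lay between 4.80 and 5.33.

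Nidogen links the laminin network to that of type IV collagen, and Nid1 encodes the more widespread form. Nid1 (1371518_at) ranged from 5.10 to 5.83 in impaired rats (median 5.19), from 4.69 to 5.18 in unimpaired rats (median 5.10) and from 5.36 to 6.62 in young rats (median 5.84). The unimpaired and young groups did not overlap, as was so in the same direction for 0.843% of all probe sets. Among impaired rats, 4 of 7 were under every young rat, replicates 2 and 3 reached the young range at 5.83 and 5.76, and replicate 7 stood at 5.36. The mean was 5.36 ± 0.31 (SD, n = 7) in impaired, 5.01 ± 0.21 (n = 6) in unimpaired and 5.83 ± 0.40 (n = 8) in young rats. Nid1 thus differed by -0.48 ± 0.16 (SE) in impaired minus young, 0.719 times the young level, and by -0.82 ± 0.17 in unimpaired minus young, 0.567 times the young level. All 7 impaired rats were above the unimpaired mean, with a difference of 0.34 ± 0.17 in impaired minus unimpaired.

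With arrays left out in turn, the unimpaired call of Nid1 held in 20 of 21 fits and was lost without unimpaired replicate 1, and the aged call held in 20 of 21 and was lost without young replicate 3. The log2 difference of unimpaired minus young ranged from -0.89 to -0.71 in these fits. Of 17 listed meningeal fibroblast markers 4 were tested: Col6a1, Igf2, Islr and Mgp. In unimpaired minus young rats Col6a1 differed by 1.21 and Igf2 by -0.91, and Islr lay near the level filter (4.17 in aged, 4.08 in young rats). The mean log2 level of the 4 was 5.82 to 6.34 in unimpaired and 5.67 to 6.63 in young rats. Impaired replicates 2, 3 and 7 were highest, at 7.07, 7.66 and 6.89, against 5.70 to 6.10 in the other 4 impaired rats. Without these 3 arrays and young replicate 5, set apart with them in an earlier look at these data although its level here lay inside the young range, Nid1 in impaired minus young was -0.76 ± 0.16, more than 1.5 times the difference over all arrays. Impaired minus unimpaired then became 0.13 ± 0.17, while unimpaired minus young was -0.89 ± 0.15 and stayed called. The 3 impaired arrays left out also had the highest Nid1 of their group, at 5.83, 5.76 and 5.36. Young replicate 5, at 5.36, lay under the young mean. Leaving these arrays out therefore had to widen the Nid1 difference between impaired and young rats, whatever their meningeal level. For Col4a5 the difference of impaired minus young was -0.97 ± 0.22 without the 4 arrays, and its calls in impaired and in all aged rats were lost.

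**Figure D2:**
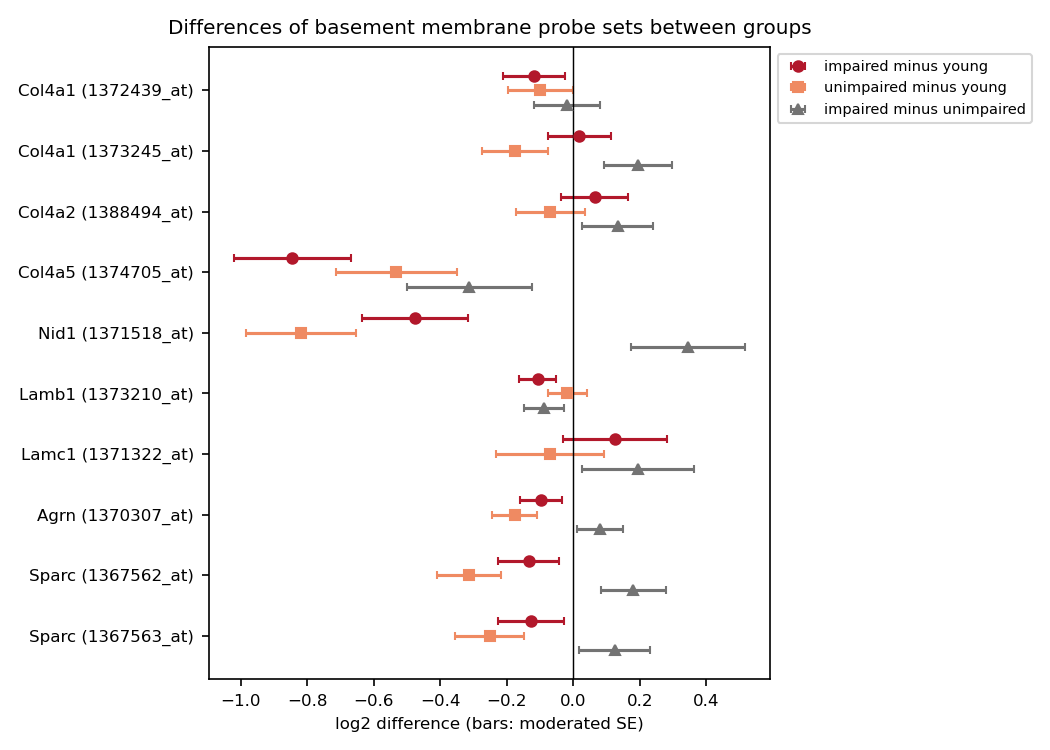
Log2 difference between groups (x axis) for the 10 tested basement membrane probe sets (y axis), with bars for the moderated SE from the limma fit. Col4a5 and Nid1 lie farthest left of 0 in both comparisons with young rats, Col4a5 with the larger difference in impaired rats (-0.84) and Nid1 with the larger difference in unimpaired rats (-0.82).

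Laminins carry an alpha, a beta and a gamma chain, and Lamb1 and Lamc1 encode the beta and gamma chains shared by many laminin trimers. Lamb1 (1373210_at) ranged from 7.47 to 7.80 in impaired rats (median 7.70), from 7.63 to 7.95 in unimpaired rats (median 7.72) and from 7.60 to 7.86 in young rats (median 7.78). The groups overlapped, with differences of -0.11 ± 0.06 for impaired and -0.02 ± 0.06 for unimpaired rats against young rats, and the second of these turned positive with median centring (0.04), quantile normalization (0.04), the replicate block (0.01) and array weights (0.02). Lamc1 (1371322_at) ranged from 4.92 to 6.33 in impaired rats (median 5.33), from 4.87 to 5.61 in unimpaired rats (median 5.32) and from 4.98 to 5.53 in young rats (median 5.37). Impaired replicate 2, at 6.33, stood apart from the other impaired rats, which reached 5.57, and the groups overlapped without it too. Lamc1 differed by 0.12 ± 0.16 between impaired and young rats and by -0.07 ± 0.16 between unimpaired and young rats, and without the 4 arrays above the first of these turned to -0.09 ± 0.15. Without impaired replicate 2 alone it was -0.02. The second turned to 0.05 with the replicate number as a block, to 0.05 with array weights, and also above 0 without unimpaired replicate 4 or 8.

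Agrin is the proteoglycan that gathers acetylcholine receptors at the neuromuscular junction, and it is also a part of the basement membrane of brain microvessels and is made by neurons. Agrn (1370307_at) ranged from 8.93 to 9.24 in impaired rats (median 9.10), from 8.89 to 9.08 in unimpaired rats (median 9.04) and from 9.02 to 9.45 in young rats (median 9.13). Agrn differed by -0.10 ± 0.06 between impaired and young rats and by -0.18 ± 0.07 between unimpaired and young rats. All 6 unimpaired rats and 6 of 7 impaired rats were under the young mean, but 4 of 6 unimpaired rats remained inside the young range. Young replicates 6 and 9, at 9.45 and 9.43, lay apart from the other 6 young rats, which reached 9.23.

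Sparc is a glycoprotein that binds collagens, type IV collagen included, and is made by endothelial and glial cells among others. On its more intense probe set (1367562_at) it ranged from 10.51 to 11.10 in impaired rats (median 10.77), from 10.37 to 10.88 in unimpaired rats (median 10.57) and from 10.68 to 11.15 in young rats (median 10.92). On the other (1367563_at) it ranged from 9.83 to 10.36 in impaired rats (median 10.15), from 9.77 to 10.26 in unimpaired rats (median 10.03) and from 9.96 to 10.60 in young rats (median 10.23). The probe sets gave similar differences, -0.13 ± 0.09 and -0.13 ± 0.10 for impaired rats, and -0.31 ± 0.10 and -0.25 ± 0.10 for unimpaired rats, each against young rats. They also varied together within groups, at an r of 0.71 (rho 0.68, adjusted p of 0.00138 by permutation of rats within groups, over the 2 genes with a pair of tested probe sets). On the first of them 4 of 6 unimpaired rats were under every young rat, and neither probe set was called.

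The next question was whether the members rise and fall together from rat to rat once group means are removed, a measure that the choice of members did not use. These correlations were chosen after the data were seen. Over the 28 pairs of the 8 genes with a tested probe set, 0 were called at the same threshold in 100000 permutations of rats within groups. The Pearson r ranged from -0.41 (Col4a2 and Col4a5) to 0.51 (Col4a5 and Nid1, rho 0.41, adjusted p 0.762), with 16 of 28 positive. Col4a1 and Col4a2, whose promoter windows share the bases shown above, had an r of 0.06 (rho 0.11, adjusted p 0.881). Only the more intense Col4a1 probe set entered here. The probe sets of Col4a1 had an r of only 0.11 with each other, so this low r cannot show that the genes vary apart. The Col4a5 and Nid1 relation fell to an r of 0.25 without young replicates 3 and 9.

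**Figure D3:**
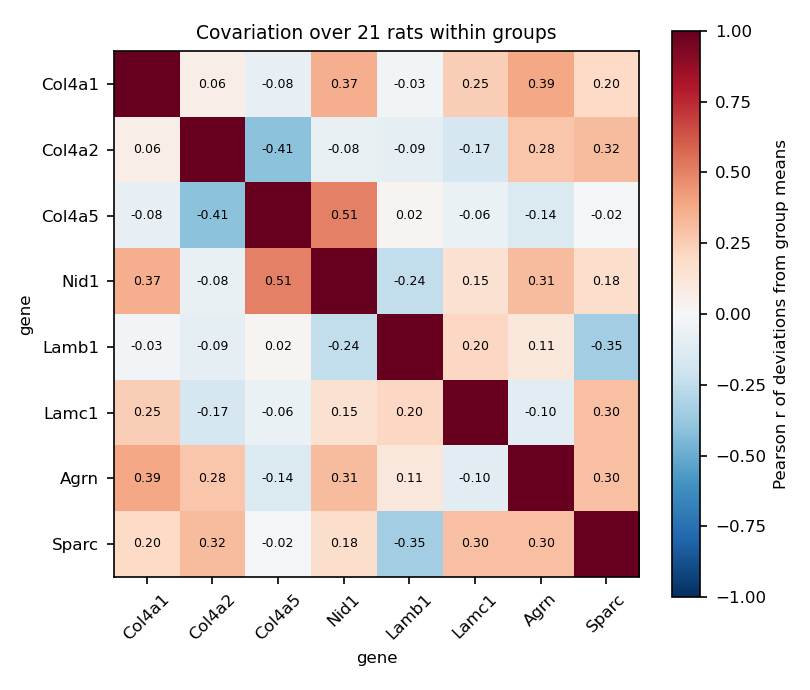
Pearson r over 21 rats of the deviations from group means, for each pair of the 8 basement membrane genes with a tested probe set (rows and columns, in the order of roles used in the text), each gene by its probe set with the highest mean. Colour runs from -1 (blue) to 1 (red), and the largest value off the diagonal is 0.51 for Col4a5 with Nid1.

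The members were then set beside markers of vascular and meningeal cells. Against the mean of 15 endothelial markers and the mean of 4 meningeal markers, 0 of 16 relations passed (r from -0.26 to 0.40), Nid1 with the endothelial markers being the highest (rho 0.53, adjusted p 0.628 for r and 0.341 for rho). A comparison with mural markers was added after the data were seen. It uses the mean of Pdgfrb, Rgs5, Acta2, Myh11 and Vtn, the 5 of 13 listed mural genes with a tested probe set. The other 8, Abcc9, Anpep, Cnn1, Cspg4, Des, Kcnj8, Notch3 and Tagln, were on the array but did not pass the level filter.

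Nid1 was the 1 of 8 members that passed against the mural markers, at an r of 0.70 (rho 0.80, adjusted p 8e-05 over the 8 relations, the smallest that these permutations can give, and 0.00032 for rho). The r was 0.93 within impaired, 0.77 within unimpaired and 0.85 within young rats. Within impaired rats Nid1 also followed the meningeal markers (r 0.89) and the endothelial markers (r 0.72), and the impaired rats with the highest mural level, replicates 2, 3 and 7, were those with the highest meningeal level. The r with meningeal markers was -0.64 within unimpaired and -0.07 within young rats, and that with endothelial markers 0.65 and 0.08. The r of Nid1 with the mural markers was 0.55 without impaired replicates 2 and 3, whose mural level lay farthest from the median. Without the 4 arrays above it was 0.57 (adjusted p 0.0142). With the endothelial markers the r of Nid1 rose to 0.59 without the same 4 arrays (adjusted p 0.178 over the 16 relations). It was also 0.59 without impaired replicate 2 and young replicate 5. By r alone, mural and endothelial markers are not set apart there. Among the single mural genes Nid1 varied most closely with Rgs5 (r 0.62, adjusted p 0.0249) and Myh11 (r 0.60, adjusted p 0.0035). All 5 single genes passed by r and 4 by rho, where Pdgfrb did not (adjusted p 0.0578). Without the 4 arrays 0 passed by r (adjusted p of 0.0578 to 0.687). Within young rats the single genes went apart, with an r of 0.82 for Rgs5 and 0.27 for Myh11. For Acta2 it was 0.04, for Vtn -0.18 and for Pdgfrb -0.64. Rgs5 lay near the level filter of 4, at a mean of 4.05 in aged and 4.28 in young rats. Its r with Nid1 over all groups fell to 0.33 without young replicates 3 and 9.

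The group means of the mural markers were not in the order of those of Nid1. Their mean log2 level ranged from 5.43 to 6.46 in impaired rats (median 5.78), from 5.25 to 5.87 in unimpaired rats (median 5.60) and from 5.56 to 5.84 in young rats (median 5.66). They differed by 0.12 between impaired and young rats and by -0.10 between unimpaired and young rats (two-sided exact permutation tests, adjusted p 0.655 for each over 24 tests of 8 marker lists). Summed on the linear scale the 5 genes came to 324 to 695 in impaired, 295 to 451 in unimpaired and 331 to 447 in young rats. Rats of like mural level can be set side by side. Impaired replicate 8 and unimpaired replicates 4 and 8, with mural levels of 5.78 to 5.87, stood at 5.14 to 5.18 in Nid1. Young replicates 3, 7 and 9, with mural levels of 5.76 to 5.84, stood at 5.91 to 6.62. At lower mural levels the gap was smaller. Unimpaired replicates 3 and 6, at 5.60 and 5.59, had Nid1 at 4.83 and 5.18. Young replicates 1, 2, 4, 5 and 6, at 5.56 to 5.67, had it at 5.36 to 5.97. Nid1 was chosen with its group differences known, so this is a description. What part the amount of mural cell RNA has in the group differences of Nid1 was not tested.

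**Figure D4:**
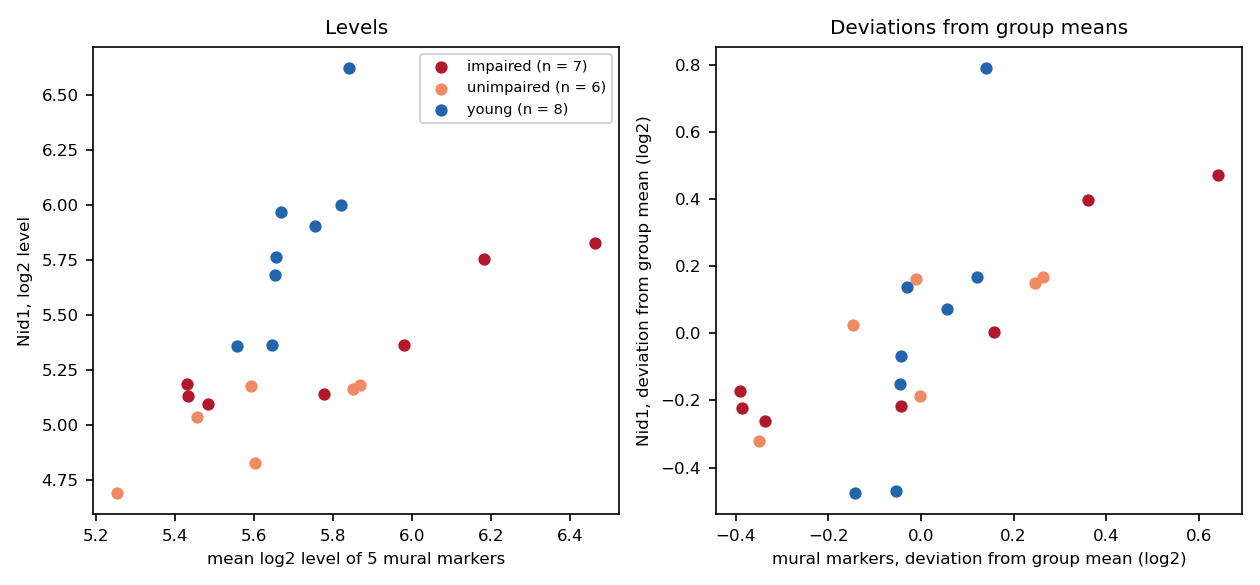
Nid1 log2 level against the mean log2 level of 5 mural markers (left), and the same as deviations from group means (right), 1 point per rat for impaired (n = 7), unimpaired (n = 6) and young rats (n = 8). In the right panel Nid1 rises with the markers (r = 0.70), and in the left panel the young rats lie above aged rats of like mural level.

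The mean log2 level of the endothelial markers averaged 6.65 ± 0.16 (SD) in impaired, 6.46 ± 0.07 in unimpaired and 6.62 ± 0.11 in young rats, and no pair of groups passed (adjusted p of 0.0666 for unimpaired minus young and for impaired minus unimpaired). Summed on the linear scale the 15 genes came to 2813 to 4204 in impaired, 2909 to 3057 in unimpaired and 3004 to 3919 in young rats. Of the 15 genes tested, Slco1c1, a thyroid hormone and organic anion transporter of brain endothelium and astrocytes, was called lower in both aged groups, with differences of -0.55 ± 0.06 for impaired and -0.50 ± 0.07 for unimpaired against young rats (adjusted p 0.000146 and 0.000691). The endothelial receptor kinase Tek (-0.51 ± 0.09, adjusted p 0.0102) and the endothelial transcription factor Sox17 (-0.63 ± 0.11, adjusted p 0.0124) were called lower in unimpaired minus young rats. Of the 15 genes, 6 were negative and 9 positive in impaired minus young, and 11 negative and 4 positive in unimpaired minus young. Among all probe sets tested, 44.8% and 66% were negative in these comparisons. Over all 8 marker lists, 1 of 24 tests passed, that of oligodendrocyte markers in unimpaired minus young rats (-0.32, adjusted p 0.00799). The meningeal sums ranged from 384 to 1855 in impaired, from 376 to 512 in unimpaired and from 380 to 598 in young rats. The choroid plexus sums of Ttr and Enpp2 ranged from 277 to 1679 in impaired, from 239 to 1089 in unimpaired and from 300 to 2296 in young rats.

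Other genes of the basement membrane and its turnover were described from 4 lists: further structural genes, matrix receptors, collagen-processing enzymes and matrix-degrading enzymes with their inhibitors. Of 69 listed genes 59 were on the array and 31, with 41 probe sets, were tested. In the limma fit 0 were called in any of the 4 contrasts, with smallest adjusted p-values of 0.0857 in impaired minus young, 0.0636 in unimpaired minus young, 0.0532 in aged minus young and 0.227 in impaired minus unimpaired. At an unadjusted p below 0.05 the counts were 11, 7, 12 and 5 of 41 probe sets in that order, against 12.4%, 17%, 14.6% and 14.5% of all probe sets tested. In aged minus young rats, 16 of the 31 genes had a negative and 15 a positive difference.

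Of the structural list only 6 of 22 genes on the array were tested. Fbln2, which encodes fibulin 2, a glycoprotein of basement membranes and elastic fibres, averaged 4.47 ± 0.39 (SD, n = 13) in aged and 5.29 ± 0.59 (n = 8) in young rats. That difference of -0.82 ± 0.20 (SE), with 13 of 13 aged rats under the young mean, had an adjusted p of 0.0532. Fbln1 gave 0.27 ± 0.15 (adjusted p 0.431) and Smoc1, which encodes a calcium-binding glycoprotein of basement membranes, 0.08 ± 0.03 (adjusted p 0.237). Fbln2 in aged rats and Smoc1 in both (4.20 in aged, 4.11 in young rats) lay near the level filter of 4.

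Among the receptors, 9 of 11 genes were tested. Itgb1, the beta subunit common to many laminin- and collagen-binding integrins, gave -0.18 ± 0.08 in aged minus young (adjusted p 0.287) on its more intense probe set. Its other probe set, singled out after its values were seen, gave -0.43 ± 0.13 in aged minus young (adjusted p 0.116) and -0.60 ± 0.16 in unimpaired minus young (adjusted p 0.0636). Itgav, an integrin alpha subunit, gave 0.23 ± 0.08 (adjusted p 0.201) and Ddr1, a collagen-binding receptor tyrosine kinase, 0.15 ± 0.07 (adjusted p 0.305).

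Among the collagen-processing genes, 9 of 12 were tested. Serpinh1, the collagen-specific chaperone of the endoplasmic reticulum, averaged 7.39 ± 0.22 (SD, n = 13) in aged and 7.91 ± 0.41 (n = 8) in young rats, a difference of -0.51 ± 0.13 (SE, adjusted p 0.0601) with 13 of 13 aged rats under the young mean. Its probe set has the suffix of probes shared by several transcripts. The prolyl hydroxylase subunit gene P4ha2 gave 0.16 ± 0.05 (adjusted p 0.137, 12 of 13 aged rats above the young mean), and Colgalt1, a collagen galactosyltransferase, -0.15 ± 0.07 (adjusted p 0.284). Among the 7 of 14 degradation genes tested, the membrane-bound metalloproteinase gene Mmp14 gave -0.32 ± 0.09 (adjusted p 0.107), the aggrecanase gene Adamts4 -0.19 ± 0.07 (adjusted p 0.170), and Plat, the tissue plasminogen activator, 0.17 ± 0.11 (adjusted p 0.506). For Mmp14 and Adamts4 all 13 aged rats were under the young mean.

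**Figure D5:**
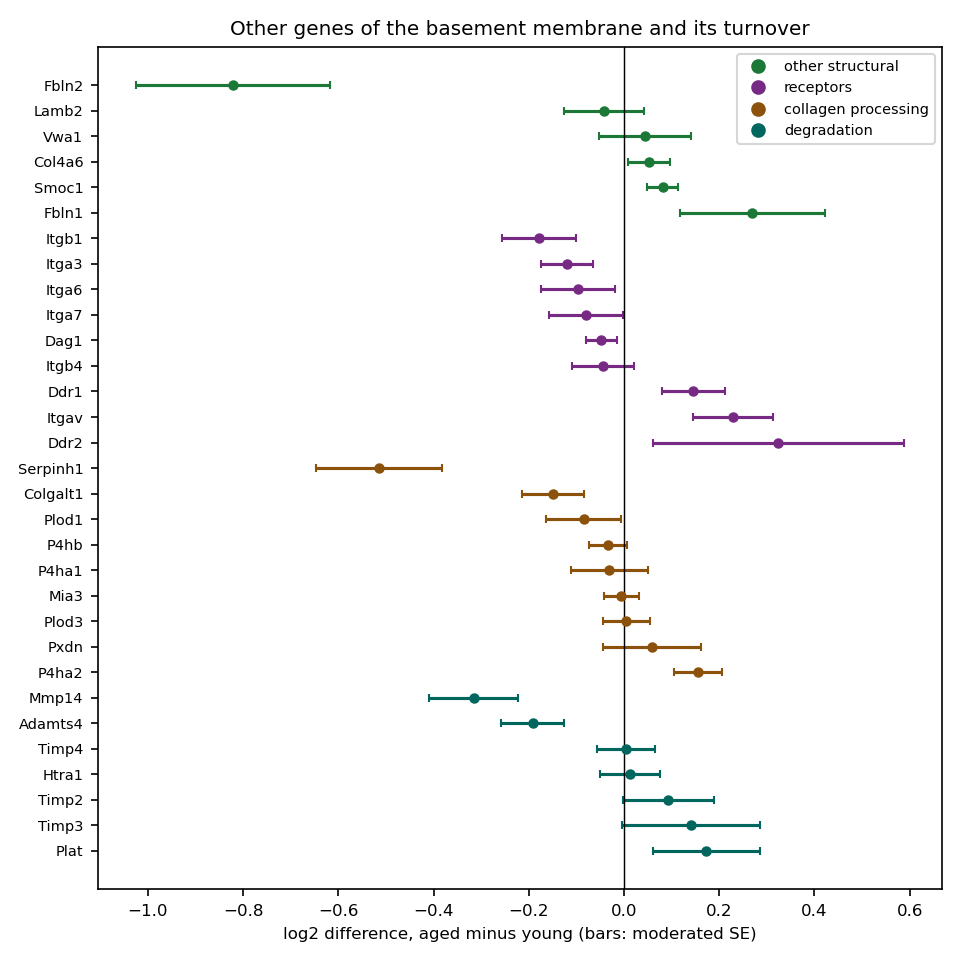
Log2 difference of aged minus young rats (x axis, bars for the moderated SE) for the 31 tested genes of the other basement membrane and matrix turnover lists (y axis), coloured by list. Fbln2 (-0.82) and Serpinh1 (-0.51) lie farthest left, and none of the 31 was called.

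By likeness of pattern, the genes outside the set that varied most closely with Nid1 within groups were Hyal2 (r 0.79), Serpinh1 (0.73), Tpm4 (0.72), Itgb4 (0.72) and Pigbos1 (0.71), the highest of 8729 genes over 21 arrays. Hyal2 encodes a hyaluronidase, Tpm4 a tropomyosin and Itgb4 a laminin-binding integrin subunit. For Col4a5 they were Tax1bp3 (0.81), Nfil3 (0.73), Tgfbr1 (0.73), Ecd (0.70) and Fam210b (0.69), of which Tgfbr1 is a receptor for transforming growth factor beta. For Col4a1 they were Camk1 (0.75), Txnrd1 (0.74), Ercc5 (0.74), Sez6 (0.67) and Man1b1 (0.67), genes of a calcium-dependent kinase, a thioredoxin reductase, a DNA repair nuclease, a seizure-related membrane protein and a mannosidase. These belong to the more intense Col4a1 probe set only. The other Col4a1 probe set did not follow it within groups (r 0.11). Hyal2 and Nfil3 had mean log2 levels of 4.34 and 4.58, near the level filter of 4. The highest of so many correlations over 21 arrays that share their processing are a description, so no p is given.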

How the data were processed

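Total RNA of the dentate gyrus of single rats was hybridized to an Affymetrix rat genome expression array. The deposited values are log2 probe set levels made by the authors with GCRMA, per the submitters' processing notes; the version is not given in the sources used here. Of 24 labelled arrays, 3, 1 in each group, have no values here, which leaves 21. Young replicate 9 stands among the unimpaired samples and was kept as young by its title. It had the highest Nid1 of all rats (6.62), and results lean on it. Without it Nid1 in unimpaired minus young was -0.71, and the Col4a5 calls in impaired and in aged minus young were lost. Over all probe sets 59 were then called in unimpaired minus young, against 172 with it. From 31099 probe sets, 57 controls and those not above a log2 of 4 on at least 6 arrays were dropped, leaving 15177. Groups were compared by limma's lmFit and eBayes (version 3.58.1, R 4.3.3) in 1 fit of the 3 groups with 18 residual degrees of freedom, with Benjamini-Hochberg adjustment over all 15177 and calls at an adjusted p below 0.05. The fit was tested on simulated data. Symbols came from the platform annotation, and all 10 members matched RefSeq. The number of arrays limits the precision.

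The members and gene lists were chosen with earlier results of these data known. Named are all members, up to 3 genes per other list with the smallest p in aged minus young where none passed, those that passed in the endothelial list, and the 5 genes most like Col4a1, Col4a5 and Nid1 within groups. Each gene is represented by its tested probe set with the highest mean. Marker lists were compared by two-sided exact permutation and correlations by 100000 permutations within groups (scipy 1.17.1). Alternatives were the level filter, the scaling, the samples in the fit, the replicate block, the variance model, array weights, arrays left out and other probe sets.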

Additional observations from a re-analysis of the deposited data

Results flagged for a closer look

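A gap test for a rat far from the others of its group was run on 54 groups of values, and chance alone marks about 1 group in 20. It marked 5 rats. Among the members, Col4a5 in unimpaired replicate 6 was at 4.18, with the other unimpaired rats between 4.72 and 4.87. Lamc1 in young replicate 4 was at 4.98, with the other young rats between 5.29 and 5.53. The endothelial marker mean of impaired replicate 2 was 6.99, with the other impaired rats between 6.49 and 6.68. The choroid plexus marker mean was 9.04 in unimpaired replicate 3, with the other unimpaired rats between 5.98 and 6.54, and 9.93 in young replicate 2, with the other young rats between 6.27 and 6.93. Without unimpaired replicate 6, the Col4a5 difference of unimpaired minus young was -0.43, against -0.53 with it.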

How the results depend on the processing

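Nid1 and Col4a5 were lower than in young rats in both aged groups in each of the 21 fits with 1 array left out and under every alternative that tested them. Without the level filter all member calls were lost (0 in each comparison with young rats), with 31042 probe sets tested and the variance prior refitted over them. A level of 6 leaves both genes untested, hence 0 members called. With only the compared groups in the fit the impaired count of members was 0, and without the 4 arrays named above it was 0 in impaired and 1 in aged minus young. With 1 array left out, 0 to 1 members were called in impaired, 0 to 1 in unimpaired and 0 to 2 in aged minus young, and 0 in impaired minus unimpaired. Low levels limit Col4a5, Hspg2 and Nid2.

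Over all probe sets, 78 were called in impaired minus young, 33 without the filter, 33 with only the compared groups, 29 without the 4 arrays and 36 to 161 with 1 array left out. In unimpaired minus young 172 were called, 67 without the filter, 69 with only the compared groups, 95 without the 4 arrays and 59 to 219 with 1 array left out. In aged minus young 168 were called, 90 without the filter, 86 without the 4 arrays and 89 to 239 with 1 array left out. In impaired minus unimpaired 0 were called, 1 with only the compared groups and 0 to 4 with 1 array left out. Scaling moved the split of calls: lower calls were 82.6% in unimpaired and 63.7% in aged minus young, 46.1% and 42.9% with median centring, and 48.8% and 46.6% with quantile normalization. In impaired minus young they were 39.7%, and 50% with quantile normalization. The cause was not tested.

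The labels do not say whether replicate numbers pair the rats. Of 17 same-numbered pairs, 4 had deviations that correlated above 0.1 (r from -0.12 to 0.20). Among arrays of the other groups, 7 of 21 arrays correlated best with one of their own number. The share that unrelated numbers would give was not worked out, so whether the numbers pair the rats stays unsettled. With the replicate block, 114 probe sets were called in impaired, 9 in unimpaired and 76 in aged minus young, with Col4a5 still called in impaired minus young (-0.82 ± 0.16) and 0 members in the other comparisons. Nid1 was then -0.72 ± 0.14 in unimpaired and Col4a5 -0.67 ± 0.14 in aged minus young. Of the other matrix genes the block called 2 in impaired minus young, Ddr1 on its less intense probe set (0.43) and P4ha2 (0.24).

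Of those genes 1 was called in aged minus young under each of 5 alternatives: Fbln2 with median centring, quantile normalization, or a trended and robust variance, and Serpinh1 at a level of 6 or without the 4 arrays. With 1 array left out 0 to 2 were called in impaired, 0 to 1 in unimpaired and 0 to 2 in aged minus young, and 0 in impaired minus unimpaired. With a list's median in place of its mean, astrocyte markers were 0.21 higher in impaired than young rats (adjusted p 0.0149), 0.15 higher in unimpaired than young rats (adjusted p 0.0455) where the mean gave -0.03, and oligodendrocyte markers 0.42 higher in impaired than unimpaired rats (adjusted p 0.0455). The oligodendrocyte difference of unimpaired minus young, -0.32 by the mean, was -0.63 by the median (adjusted p 0.00799 for each).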
